A study of Drosophila melanogaster with 3 samples.

Results

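The genes described here encode the proteins of the mitochondrial ribosome of Drosophila melanogaster. They were chosen by name, as the protein-coding genes whose symbol starts with mRpL (large subunit) or mRpS (small subunit) in the Ensembl annotation, which gave 73 genes, 47 of the large and 26 of the small subunit, of 13945 protein-coding genes on the 6 chromosome arms. They were examined in a chromatin immunoprecipitation sequencing (ChIP-seq) study of the zinc finger protein CG6808, named Zaf1 in the Release 6 annotation. Whole prepupae of pooled sex, from a transgenic line with GFP fused to the C-terminus of CG6808, were immunoprecipitated with an antibody to GFP, in 3 biological replicates of 1 group. In the labels the antibody field names CG6808 and the age field reads 24 days, a value not usual for a prepupa. There was no second condition, so the design holds no comparison between treatments, and the question was where the tagged protein was found around these genes and how well the replicates matched. Neither untagged animals nor a mock precipitation were analysed here. Whole animals mix tissues, so a site occupied in few cells and one occupied weakly in many cells cannot be told apart.

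The mitochondrial ribosome translates the few messenger RNAs made from mitochondrial DNA, all of which encode subunits of the respiratory chain and ATP synthase. Its ribosomal RNAs come from the mitochondrial genome, whereas its proteins are encoded in the nucleus, made in the cytosol and imported. Some of the proteins descend from bacterial ribosomal proteins and keep their numbers, and others are found only in mitochondrial ribosomes. In flies, mutations in genes of this group are known to impair growth and respiration.

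The summits at these genes lay mostly in the short stretch between the member and a gene transcribed away from it on the other strand, and the sequence of such stretches is shown for the peaks on which the results turn. All are the plus strand of the Release 6 genome (dm6), as in RefSeq. The complete gap between the facing start sites is given for mRpS10 (chr3R:15229408-15229665, with the arginine methyltransferase gene Art3 on the left) and for mRpL24 (chr2L:4945361-4945579, with betaggt-I, which encodes the beta subunit of a protein prenylation enzyme, on the right). For mRpL30 (chrX:4647758-4647870) the stretch from 100 bases before the summit to the last base before the mRpL30 start site is given. The capitals mark the summit with 5 bases on both sides.
mRpS10 and Art3: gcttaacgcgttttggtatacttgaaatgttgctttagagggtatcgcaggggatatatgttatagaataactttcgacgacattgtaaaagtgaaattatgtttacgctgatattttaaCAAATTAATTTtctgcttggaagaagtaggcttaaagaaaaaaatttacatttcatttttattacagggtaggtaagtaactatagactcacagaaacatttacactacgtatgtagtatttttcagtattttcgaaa
mRpL24 and betaggt-I: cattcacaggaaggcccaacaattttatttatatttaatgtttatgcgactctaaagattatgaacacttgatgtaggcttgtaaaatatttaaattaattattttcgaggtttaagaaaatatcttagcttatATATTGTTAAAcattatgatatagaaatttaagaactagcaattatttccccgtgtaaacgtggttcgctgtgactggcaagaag
mRpL30: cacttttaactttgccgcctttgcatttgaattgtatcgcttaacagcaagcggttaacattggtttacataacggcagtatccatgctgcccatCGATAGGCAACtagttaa

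The tagged protein had a summit at about as large a share of mitochondrial ribosomal protein genes as of all genes. In the authors' list filtered for reproducibility (IDR list, for irreproducible discovery rate, 8091 peaks), 14 of 73 members were bound, which here means that a summit lay no more than 500 bp from an annotated start of transcription. That is 19.2% (exact 95% binomial interval 10.9 to 30.1%), against 18.1% of all protein-coding genes, so the share of members was near the background. Intervals cover counting error only, and the read depth behind the lists is unknown. In the 8091 strongest regions of each replicate, replicate 1 had 19 bound members (26.0%), replicate 2 had 16 (21.9%) and replicate 3 had 13 (17.8%). The corresponding shares of all protein-coding genes were 20.7%, 17.7% and 16.5%. The means were 21.9% ± 4.11 of members and 18.3% ± 2.19 of all protein-coding genes (SD, n = 3 replicates). Within replicates 1, 2 and 3 the members' share was higher by 5.28, 4.17 and 1.33 percentage points, a mean of 3.59 ± 2.04 (SD, n = 3), so the 3 differences had the same sign. The replicates share most of their promoters, and in each the background lay inside the exact interval of the members' share.

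In the longer lists the members' share was at or below that of all genes in every list but that of replicate 1. All 30000 regions of the pooled list, which was called on the 3 replicates together, put a summit at 19 members (26.0%, interval 16.5 to 37.6%), against 32.2% of all protein-coding genes. The 30000 regions of the full replicate lists gave 29 (39.7%), 24 (32.9%) and 19 (26.0%) members in replicates 1, 2 and 3, a mean of 32.9% ± 6.85, against 38.2%, 33.5% and 31% of all protein-coding genes, a mean of 34.3% ± 3.68 (SD, n = 3 replicates). Within replicates the difference, members minus all genes, was 1.49, -0.67 and -4.94 percentage points, so its sign varied.

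Among the strongest peaks the share of members was higher. The 1000 strongest IDR peaks held a summit at 7 members (9.59%, interval 3.94 to 18.8%), against 3.59% of all protein-coding genes, a value just below the interval. The count was 7 in the 1000 strongest regions of each replicate too, where 3.59%, 3.56% and 3.34% of all protein-coding genes were bound in replicates 1, 2 and 3, a mean of 3.49% ± 0.133 (SD, n = 3). In each of these lists the 7 were mRpL30, mRpS10, mRpS23, mRpL41, mRpL2, mRpL23 and mRpL24. The cutoff of 1000 peaks was one of several examined, and the members' share rests on few genes. It was not particular to them, as 4 of 43 other nuclear genes of mitochondrial gene expression, described below, were bound at this cutoff too.

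**Figure D1:**
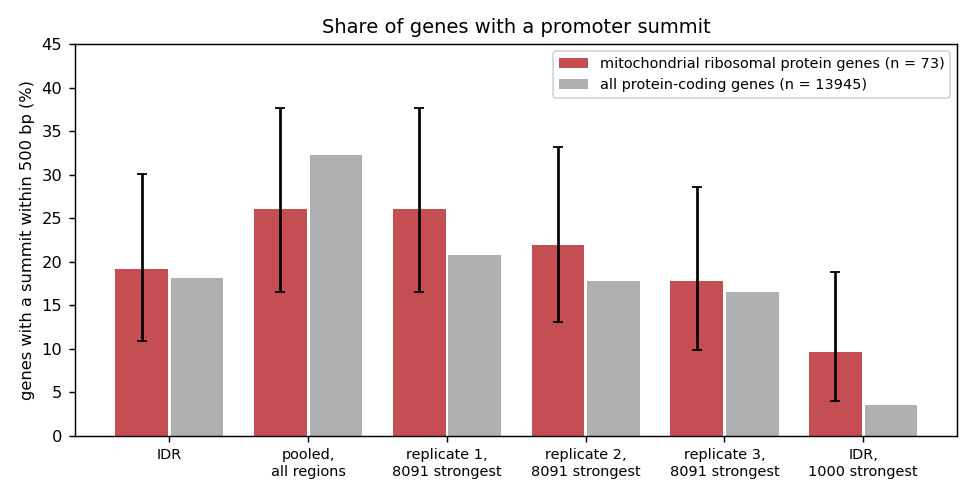
Share of genes with a summit within 500 bp of a start site (vertical axis, percent) in the IDR list, the pooled list, the 8091 strongest regions of each replicate and the 1000 strongest IDR peaks. Red bars show the 73 mitochondrial ribosomal protein genes with exact 95% binomial intervals and grey bars all 13945 protein-coding genes; the grey bar lies outside the interval in the last pair, where 9.59% of members stand against 3.59%.

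The bound members reached high ranks. Their median signal in the IDR list was 806.9, against 335.4 for all bound protein-coding genes, where signal is the authors' peak height over control and is compared within a list only. The ratio of these medians was 2.41 in the IDR list and 1.19, 1.82 and 2.44 in replicates 1, 2 and 3, a mean of 1.81 ± 0.625 (SD, n = 3 replicates). The median rank was 1097 for bound members and 3323 for all bound protein-coding genes. Of the 14 bound members, 6 (42.9%) ranked among the 500 strongest peaks, against 300 of 2519 bound protein-coding genes (11.9%). Leaving out a replicate, which here keeps only IDR summits matched among the strongest regions of both other replicates, left 10 or 11 bound members with median signals of 1480 to 1506. That filter drops the weaker members, so the higher median follows from the construction and adds no support for high ranks. The median of all bound protein-coding genes under the same filter is not given here.

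The strongest summits were found at the same places in every replicate, and the ranks of the weaker ones varied more. The large-subunit gene mRpL30, named after a bacterial large-subunit protein, held the highest peak of any member (X, 4647617 to 4648177), with a signal of 4235.8 and rank 64 in the IDR list. Its summit had a signal of 2229.9 in replicate 1, 914.6 in replicate 2 and 1094.6 in replicate 3, at ranks 66, 67 and 62. It lay 13 bp upstream of the start site in the IDR list, with offsets of -13, -13 and -16 bp in the replicates, so the replicate summits fell within 3 bp of each other. The gene on the other side, HLH4C, encodes a basic helix-loop-helix transcription factor and starts 457 bp away.

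The small-subunit gene mRpS10, whose bacterial counterpart sits in the head of the small subunit, ranked 86 with a signal of 3156.1 (3R, 15229329 to 15229745). Its signals were 1613 in replicate 1, 857 in replicate 2 and 706.8 in replicate 3, at ranks 89, 72 and 91. The summit lay 132 bp upstream of mRpS10 and 125 bp from Art3, near the middle of the 257 bp gap printed above. The gene mRpS23, which encodes a small-subunit protein without a bacterial counterpart, ranked 99 with a signal of 2802.9 (2L, 13835269 to 13835666). Replicates 1, 2 and 3 gave mRpS23 signals of 1450.3, 748.3 and 611.4, at ranks 109, 88 and 113. Here the summit was 406 bp upstream of mRpS23 and 86 bp from the start of CenG1A, an Arf GTPase-activating protein gene, so it lay on the neighbour's side of the 492 bp gap.

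The gene mRpL41, which encodes a large-subunit protein found in mitochondrial ribosomes, ranked 108 with a signal of 2739.6 (2R, 15217541 to 15217991), and its replicate signals were 1392.6, 741.3 and 619.6, at ranks 118, 90 and 108. Its summit lay 138 bp upstream of mRpL41 and 624 bp from CG8079 in the widest gap among the bound members (762 bp), and this was the only one of the 14 summits more than 500 bp from the neighbour's start. These 4 members stood within the 118 strongest regions of every list.

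The next pair, mRpL2 and mRpL23, ranked between 294 and 386 in every list. The gene mRpL2 encodes the counterpart of a bacterial protein next to the peptidyl transferase centre, the site of peptide bond formation. Its peak (3L, 11120250 to 11120712) had a signal of 1531.5 and rank 299 in the IDR list, and 839.7, 358.9 and 329.7 in replicates 1, 2 and 3, at ranks 294, 339 and 386. The summit was 340 bp upstream of mRpL2, inside an intron of the forkhead transcription factor gene FoxK, whose start is 64 bp away from that of mRpL2. A weaker second summit with a signal of 400.6 lay 131 bp upstream, in a region that overlaps the first. The gene mRpL23, whose bacterial counterpart lines the exit of the peptide tunnel, had a peak on the same arm (2373426 to 2373790) with a signal of 1479.7 and rank 332. Its replicate signals were 779.8, 371.3 and 332.4, at ranks 341, 314 and 372. With 3 annotated start sites, the mRpL23 summit lay 78 bp downstream of the nearest one, in the 5′ UTR. It was the only summit among the 14 inside the member itself and downstream of its nearest start. The offset of this summit from another mRpL23 start was -99 bp, and in replicate 3 the offset from the nearest start was -79 bp.

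The large-subunit genes mRpL24, mRpL52 and mRpL20 followed with mid-range peaks, present in all 3 replicates. The gene mRpL24, whose bacterial counterpart acts early in assembly of the large subunit, had a signal of 920.3 and rank 855 (2L, 4945328 to 4945641), with 459.5, 250.9 and 204.5 in replicates 1, 2 and 3. The summit, in the gap printed above, was 139 bp upstream of mRpL24 and 79 bp from betaggt-I. The gene mRpL52, which encodes a protein without a bacterial counterpart, had a signal of 693.5 and rank 1339 (2R, 7674318 to 7674580), with 389.1, 144.0 and 155.9 in the replicates. Only 50 bp separate mRpL52 from CG12107, and the summit was 38 bp and 12 bp from these starts. The gene mRpL20, the counterpart of another bacterial assembly protein, had a signal of 532.3 and rank 1899 (3L, 13018024 to 13018227), with 275.1, 150.3 and 105.7 in the replicates. Its summit lay 281 bp upstream, 118 bp from Icmt, which encodes an isoprenylcysteine methyltransferase.

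The remaining members had lower ranks and varied more between replicates. The gene mRpS26, which like mRpS22 encodes a small-subunit protein without a bacterial counterpart, had a signal of 405.0 and rank 2673 in the IDR list (3L, 18106096 to 18106565), with ranks of 2899, 1944 and 4426 in replicates 1, 2 and 3; the summit lay 248 bp upstream, 182 bp from CG13698. The gene mRpS22 had a signal of 259.7 and rank 4515 (3R, 27916528 to 27916997), with ranks of 4583, 8506 and 3495, so in replicate 2 it fell outside the 8091 strongest regions. Its replicate offsets were -181, -145 and -237 bp. The gene mRpS21, next to the DnaJ-like chaperone gene Droj2, had a signal of 236.6 and rank 5018 (3R, 13381941 to 13382410), ranks of 4300 and 7832 in replicates 1 and 2 and no summit in replicate 3. 

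For the last pair, mRpL35 and mRpL17, replicate 1 was the only one with a summit. The gene mRpL35, the counterpart of a small bacterial protein of the large subunit, had a signal of 185.6 and rank 6524 (3R, 22022993 to 22023462), 299 bp upstream and inside the 5′ UTR of Mitofilin, whose protein organises the cristae of the inner membrane. A second summit with a signal of 176.4 lay 91 bp upstream, and replicate 1 had a summit at that place, with a signal of 107.3 and rank 6531, but none matching the first. The gene mRpL17, next to Tudor-SN, which encodes a staphylococcal nuclease domain protein, had a signal of 165.4 and rank 7425 (3L, 264228 to 264697), 316 bp upstream. In replicate 1 its strongest summit had a signal of 48.0 and rank 14879 at an offset of -102 bp. For both genes, replicates 2 and 3 had no summit within 500 bp in their 30000 regions.

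**Figure D2:**
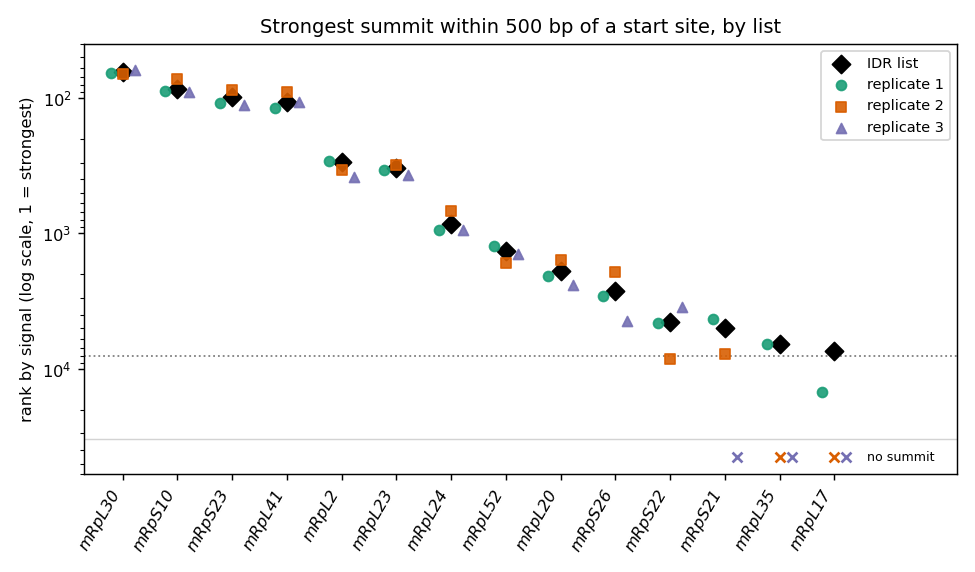
Rank by signal (vertical axis, log scale, strongest at the top) of the strongest summit within 500 bp of a start site for the 14 bound mitochondrial ribosomal protein genes, in the IDR list (black diamonds) and in replicates 1, 2 and 3 (coloured symbols). The dotted line marks rank 8091 and crosses mark a list without a summit; the 7 strongest members are among the first 1000 in every list, while mRpS21 lacks a summit in replicate 3 and mRpL35 and mRpL17 in replicates 2 and 3.

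Counted over the group, the full lists of replicates 1, 2 and 3 put a summit at 14, 12 and 11 of the 14 bound members. Among the 8091 strongest regions the counts were 13, 11 and 11, and 10 members (71.4%) were bound in all 3, against 1740 of the 2519 bound protein-coding genes (69.1%). The exact summit of the IDR peak was matched within 100 bp in the full lists of all 3 replicates for 11 of the 14.

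Most mitochondrial ribosomal protein genes share their promoter region with another gene. A protein-coding gene starting within 1000 bp on the other strand and pointing away (a head-to-head neighbour) was found for 58 of 73 members (79.5%), against 5052 of 13945 protein-coding genes (36.2%). This arrangement comes from the annotation and holds whether or not a peak is present. The median gap between the facing starts was 283 bp for members and 298 bp for all protein-coding genes with a neighbour.

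Every bound member had such a neighbour. In the IDR list 14 of 58 members with a neighbour were bound (24.1%, interval 13.9 to 37.2%), against 24.5% of protein-coding genes with a neighbour. Of the 15 members without one, 0 were bound, which allows a share of up to 21.8%, against 14.4% of protein-coding genes without one. In the 8091 strongest regions of the replicates, the members with a neighbour were bound in 27.0% ± 4.34 and the protein-coding genes with a neighbour in 25.5% ± 3.96 of cases (SD, n = 3). The members without a neighbour were bound in 2.22% ± 3.85 of cases, through mRpL19 in replicate 1, and the protein-coding genes without one in 14.2% ± 1.20. Within the head-to-head class the members' share thus lay at the class average, and 15 genes are too few to place the other share relative to 14.4%. Among the 1000 strongest IDR peaks, 7 of 58 members with a neighbour were bound (12.1%), against 4.89% of protein-coding genes with a neighbour. The bound members' gaps had a median of 344.5 bp and those of the 44 unbound members with a neighbour 280 bp, in overlapping ranges of 24 to 762 bp and 20 to 793 bp.

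The summit was often closer to the neighbour than to the mitochondrial ribosomal protein gene. For 4 of the 14 bound members, mRpL30, mRpL41, mRpL23 and mRpS22, the coding start site nearest to the strongest summit was the member's own, and for 10 it was the neighbour's. The member's share of 28.6% stood against 64.6% among all 1236 bound protein-coding genes with a neighbour, 798 of which were nearest to their own strongest summit. In the replicates the share was 42.1% of 19, 25.0% of 16 and 38.5% of 13 bound members, a mean of 35.2% ± 9.01, against 63.4% ± 1.07 for all bound protein-coding genes with a neighbour (SD, n = 3), a difference larger than the spread between replicates. The replicates hold largely the same promoters, so this spread does not cover the choice of genes. For 13 of 14 members the same summit also lay within 500 bp of the neighbour's start, so that the peak counts for both genes and cannot be assigned to one of them by position. With each summit given only to its nearest coding start, 5 members were bound (6.85%), the fifth being mRpL35 through its second summit, against 15.2% of all protein-coding genes.

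Of the 14 strongest summits, 10 lay between the facing starts and in no gene, 3 inside the neighbour (FoxK, Droj2 and Mitofilin) and 1 inside the member (mRpL23). The places of summits over all protein-coding genes are not given here. The median offset from the member was -196.5 bp, against -124 bp for all bound protein-coding genes, and 13 of 14 summits (92.9%) were upstream, against 73.6%. These are not like promoters, as 1283 of the 2519 bound protein-coding genes have no head-to-head neighbour and all 14 bound members have one. A summit between facing starts is upstream of both genes by position, and the values for genes with a neighbour are not given here. In replicates 1, 2 and 3 the median offsets of bound members were -172, -152 and -136 bp, against -115, -138 and -128 bp for all bound protein-coding genes, so the gap was smaller there. The median peak width was 457 bp for members and 470 bp for all bound protein-coding genes.

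**Figure D3:**
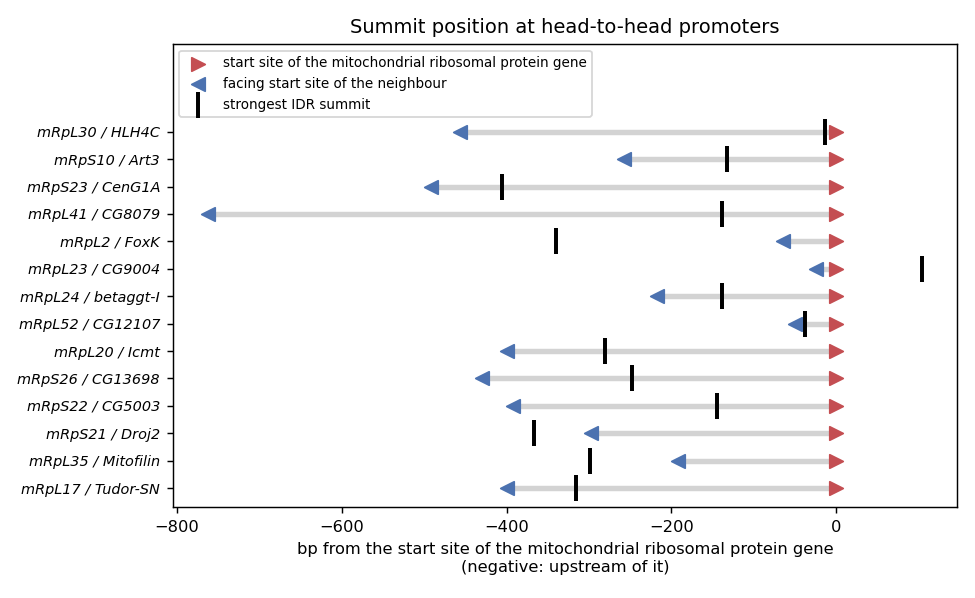
Position of the strongest IDR summit (black bar) relative to the facing start sites of the 14 bound members (red, at 0) and their head-to-head neighbours (blue), in bp, negative being upstream of the member. The 10 summits inside the grey gap lie between the starts, those of mRpL2, mRpS21 and mRpL35 lie beyond the neighbour's start, and that of mRpL23 lies downstream of the member's own start.

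Both subunits had nearly the same share of bound genes. In the IDR list 9 of 47 large-subunit genes (19.1%, interval 9.15 to 33.3%) and 5 of 26 small-subunit genes (19.2%, interval 6.55 to 39.4%) were bound. The replicates gave 22.7% ± 3.25 of large-subunit and 20.5% ± 5.88 of small-subunit genes (SD, n = 3). Genes numbered as bacterial ribosomal proteins, up to L36 and S21, were bound in 9 of 42 cases (21.4%, interval 10.3 to 36.8%), and those numbered above in 5 of 31 (16.1%, interval 5.45 to 33.7%). This split was chosen after the values were seen, and the intervals overlap widely. By arm the bound members were 2 of 12 on 2L, 2 of 12 on 2R, 5 of 17 on 3L, 4 of 21 on 3R and 1 of 11 on X, so no arm held most of them. These are 16.7%, 16.7%, 29.4%, 19.0% and 9.09%, against 17.3%, 16.6%, 18.6%, 17.6% and 21.1% of the protein-coding genes of these arms. Each arm's share lay inside the members' interval, and each rests on few genes.

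Of the 59 unbound members, 5 had a weaker summit within 500 bp in the pooled list, below the IDR cutoff. These were mRpS16 (signal 136.6, rank 9039, 121 bp upstream), mRpL34 (130.7, rank 9499, 172 bp upstream), mRpS31 (127.2, rank 9751, 349 bp upstream), mRpL54 (114.6, rank 10833, 43 bp upstream) and mRpS25 (102.7, rank 12013, 493 bp upstream). Just inside the cutoff stood mRpL35 and mRpL17, with 185.6 and 165.4. All 5 have a head-to-head neighbour, and mRpL34 and mRpS31 had a summit in every replicate list. A further 15 members had a summit in the replicate lists alone, 8 in 1 list, 6 in 2 lists and 1, mRpL39, in 3 lists. The other 39, 27 of the large and 12 of the small subunit, had no summit within 500 bp in any list, and 26 of them have a head-to-head neighbour. The shares of all protein-coding genes in these classes are not given here, so the counts are not a trait of the members. Each full list, pooled or replicate, put a summit at only 31 to 38.2% of all protein-coding genes. Among these 39 are mRpL3, mRpL4, mRpL11, mRpL12, mRpS2 and mRpS9, named as counterparts of bacterial core or stalk proteins after their values were seen.

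Distance gave the same picture without a window. The median distance from a start site to the nearest IDR summit was 6776 bp for members and 7102 bp for all protein-coding genes. Within 250 bp lay 13.7% of members and 13.9% of protein-coding genes, within 1000 bp 26.0% and 22.0%, and within 10000 bp 63.0% and 59.5%. The member farthest from an IDR summit was mRpS5, at 956484 bp. That distance depends on the IDR cutoff, as the nearest pooled summit was 553 bp from mRpS5. Weak summits also lay at offsets of 456 bp in replicate 2 (rank 16278) and 35 bp in replicate 3 (rank 22112).

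**Figure D4:**
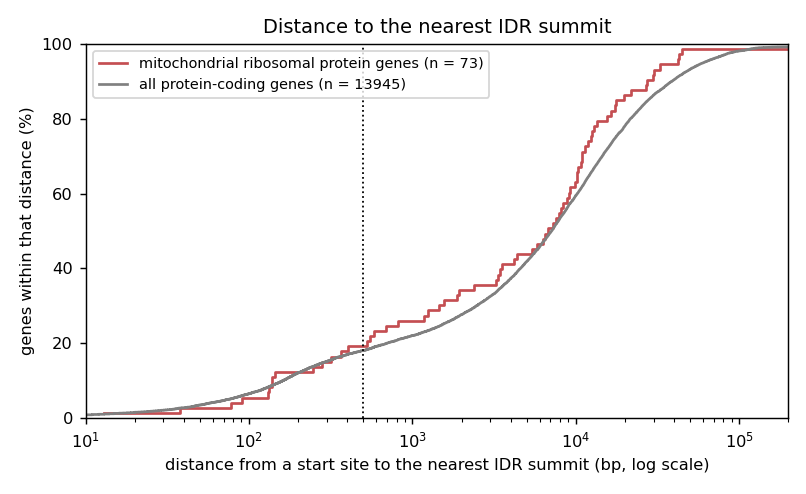
Cumulative share of genes (vertical axis, percent) with an IDR summit within a given distance of a start site (horizontal axis, bp, log scale), for the 73 mitochondrial ribosomal protein genes (red) and all 13945 protein-coding genes (grey). The curves run close together at 500 bp (dotted line), at 19.2% and 18.1%.

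The bases around the member summits were AT-rich. The median GC content within 100 bp of the 14 summits was 33.1% (range 26.4 to 45.8%), against 39.3% at the 2053 peaks at coding promoters and 37.3% at all IDR peaks. The pentamer CACTG, searched because an earlier analysis of the same peaks had found it often, was present on either strand within 100 bp of 5 member summits (35.7%, interval 12.8 to 64.9%), those of mRpS23, mRpL52, mRpL20, mRpS21 and mRpL17, against 42.4% of peaks at coding promoters. The 4 highest-ranked member summits held it in 1 case, mRpS23. The octamer TATCGATA (DNA replication-related element) was found at 0 of 14 member summits, against 3.70%, GAGAGAG at 1, mRpL2, against 8.77%, GGTCACACT (core of Motif 1) at 1, mRpS21, against 1.80%, and GCATGCGC (core of the NRF-1 motif) at 0, against 0.390%.

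The windows of 2 peaks that hold CACTG are given to show its position, on the plus strand of dm6 and with the summit 100 bases after the left end. They are mRpS23 (chr2L:13835378-13835563, with CenG1A on the right) and mRpL20 (chr3L:13018048-13018248, with Icmt on the right). The capitals mark CACTG.
mRpS23: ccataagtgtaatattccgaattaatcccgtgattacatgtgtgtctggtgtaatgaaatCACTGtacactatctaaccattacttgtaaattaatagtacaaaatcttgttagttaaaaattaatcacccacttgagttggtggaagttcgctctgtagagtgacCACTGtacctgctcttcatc
mRpL20: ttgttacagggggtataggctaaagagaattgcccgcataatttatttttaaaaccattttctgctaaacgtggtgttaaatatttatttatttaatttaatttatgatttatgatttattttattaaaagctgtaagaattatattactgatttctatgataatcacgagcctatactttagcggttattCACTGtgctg

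Promoter sequence was searched in all members, from 250 bases before to 50 after the most upstream start site and on both strands. TATCGATA was present in 15 of 73 member promoters (20.5%, interval 11.98 to 31.6%), against 9.36% of all protein-coding promoters, which lies below the interval. GGTCACACT was present in 8 (11.0%, interval 4.85 to 20.5%), against 6.05%, and CACTG in 39 (53.4%, interval 41.4 to 65.2%), against 46.2%. GAGAGAG and GCATGCGC were present in 1 promoter each (1.37%, interval 0.0347 to 7.40%), against 5.87% and 1.05%, both inside the interval. With 500 bases on both sides of the start site, GGTCACACT was present in 14 member promoters (19.2%, interval 10.9 to 30.1%), against 8.21% of all protein-coding promoters, below the interval. In these wider windows GAGAGAG was present in 3 (4.11%, interval 0.856 to 11.5%), against 12.2%, above the interval. There TATCGATA stood at 24.7% (interval 15.3 to 36.1%), against 12.3%. For CACTG (89.0%, against 86.9%) and GCATGCGC (1.37%, against 2.58%) the share of all promoters lay inside the interval. Several motifs were searched in both windows, without correction for their number. Among the 14 bound members TATCGATA was present in 3 promoters (21.4%) and CACTG in 7. The head-to-head neighbours, found for 79.5% of members against 36.2% of all protein-coding genes, share these windows, and a match is not a site of binding.

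Other nuclear genes of mitochondrial gene expression were bound about as often. In 4 lists of such genes, 6 of 43 were bound in the IDR list (14.0%, interval 5.30 to 27.9%), against 18.1% of all protein-coding genes. In the pooled list 12 of 43 were bound, against 32.2% of all protein-coding genes. The 1000 strongest IDR peaks held a summit at 4 of the 43, beside 7 of 73 members (9.59%) and 3.59% of all protein-coding genes. A head-to-head neighbour was found for 24 of 43, against 36.2% of all protein-coding genes. The strongest was Lrpprc2, which encodes an RNA-binding protein of the mitochondrial matrix, with a signal of 6534.7 and rank 42 (98 bp upstream), followed by MetRS-m, the mitochondrial methionyl-tRNA synthetase, with 4627.2 and rank 60 (24 bp upstream). The exonuclease gene PNPase had a signal of 3209.2 and rank 83 (80 bp downstream), and scu, whose product is a dehydrogenase and part of mitochondrial RNase P, had 891.6 and rank 901 (182 bp downstream). The initiation factor gene mIF2 had 241.1 and rank 4926, and ArgRS-m, the arginyl-tRNA synthetase, had 220.7 and rank 5410. By list the counts were 1 of 10 translation factors, 2 of 16 aminoacyl-tRNA synthetases, 3 of 15 transcription and RNA processing genes, and 0 of 2 small-subunit protein genes outside the naming rule, tko and bonsai. For all 6 bound genes the nearest coding start was their own, against 4 of 14 mitochondrial ribosomal protein genes. The groups are not matched for gene arrangement. Of the 6, mIF2, MetRS-m and Lrpprc2 have no head-to-head neighbour, whereas all 14 bound members have one. The share was 82.5% over all bound protein-coding genes and 64.6% over those with a neighbour. The lists are small and the difference was not tested.

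Genes for the cytosolic ribosome were bound in 60 of 92 cases (65.2%, interval 54.6 to 74.9%), against 14 of 73 for the mitochondrial ribosome (19.2%), and the intervals do not overlap. The share of all protein-coding genes was 18.1%. The order was the other way among the 1000 strongest IDR peaks, which held a summit at 7 of 73 members (9.59%) and at 2 of the 92 cytosolic genes. These peaks held a summit at 3.59% of all protein-coding genes, and both counts are small.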

How the data were processed

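The series holds 3 anti-GFP ChIP-seq samples of whole prepupae. Per the text descriptions deposited with the samples, the authors called regions on dm6 from each replicate and from the pooled replicates against 1 control alignment, and derived the IDR list from these. Each deposited list gives the signal that the authors' peak calling made for a region, read as its height over the control from the narrowPeak column order. It also gives the authors' deposited −log10 q-value, made in the same calling, which was not used here. Neither aligner nor peak caller is given in the sources used here. Fragments of 200 to 800 bp came from sonication, per the labels. The IDR list is the same set as the 8091 strongest pooled regions. Lists on dm3, the control and coverage tracks were not used here.

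Start sites came from Ensembl release 115 and sequence from the RefSeq Release 6 genome, on 6 arms. Bound means a summit at most 500 bp from any start site of the gene, and ranks follow signal within a list. Replicate lists were compared at 8091 regions, and summits were matched within 100 bp. With 1 group there was no test between conditions, and members stand beside all protein-coding genes. The members and gene lists were chosen with earlier results of these data known. All members bound in the IDR list, their neighbours, members with a pooled summit and bound genes of each other list were named by rule, and other names were chosen after values were seen. Of the listed symbols, 1 was not matched under its written name. Alternatives changed windows, cutoffs, lists, replicates and assignment of summits. The scripts were tested on simulated data. Figures were drawn with matplotlib 3.10.9, and values computed with scipy 1.17.1, pandas 2.3.3 and numpy 2.4.6 in Python 3.11.15.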

Additional observations from a re-analysis of the deposited data

How the results depend on the processing

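Of 73 alternatives, 46 stayed within the tolerance set for them (1.5 times for counts, 1 SD over replicates for means and medians, the exact interval for motif shares) and 27 did not. The 14 bound members (19.2%, against 18.1% of all protein-coding genes) became 7 (9.59%, against 3.59%) with the 1000 strongest peaks, 8 (11.0%, against 11.9%) where the region itself had to cover a start site, and 5 (6.85%, against 15.2%) where a summit counted only for its nearest coding start, all 5 with a neighbour. The count was also 5 with the nearest start of any gene (added after seeing the data). Leaving out a replicate gave 10 to 11 (13.7 to 15.1%, against 12.1 to 13.5%), all with a neighbour. The members' share thus fell below that of all genes under the start-covering and nearest-start rules, with 250 bp (13.7%, against 13.9%) and in the pooled list (26.0%, against 32.2%). It was also below in the full lists of replicates 2 and 3, but not in that of replicate 1 (39.7%, against 38.2%). The mean replicate share of 21.9% became 16.4% with 250 bp, 26.5% with 1000 bp, 32.9% with full lists (against 34.3%), 15.1% with shorter lists, and 19.9 to 24.0% without 1 replicate. Except for full lists, the matching means of all protein-coding genes are not given here, so these changes are not shown to be the members' own. In the IDR list the share of all protein-coding genes moved with the window too, to 13.9% with 250 bp and 22.0% with 1000 bp. The median signal of 806.9 became 502.4 with 1000 bp and 1480 to 1506 without 1 replicate, where the construction drops the weaker members. The median offset of -196.5 bp became -131.5 with 250 bp, -248 with 1000 bp, -172 in the pooled list and -139 to -138.5 without 1 replicate. The 5 bound small-subunit genes became 3 with 250 bp, 8 in the pooled list and 3 to 4 without 1 replicate, while the 9 large-subunit genes stayed at 7 to 12. With neighbours counted only within 500 bp (53 members), 1 of the 20 others was bound, mRpL41. The 6 of 43 other mitochondrial expression genes bound became 12 in the pooled list, where the share of all protein-coding genes rose from 18.1 to 32.2%. CACTG was in 89.0% of member promoters with 500 bases on both sides (against 86.9%). From 250 bases before to 50 after the start site, GAGAGAG and GCATGCGC were in 0% of bound members, against 5.87% and 1.05% of all protein-coding promoters. With 500 bases on both sides, GAGAGAG was in 1 of 14 bound members (7.14%), against 12.2%. Depth is unknown, so a member without a summit is not shown to lack the protein. No paired analysis was possible because the 3 replicates form 1 group.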

Other observations

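Some members had replicate summits that no pooled region matched. Of the 16 members with a summit within 500 bp among the 8091 strongest regions of at least 2 replicates, 3 (18.8%) had no pooled summit within 500 bp, against 117 of 2427 protein-coding genes (4.82%). The members' share rests on 3 genes, is given without an interval, and the difference was not tested. The gene mRpS7, head to head with the cell cycle kinase gene Cdk1, had a signal of 168.5 and rank 3787 in replicate 1 (191 bp upstream) and 82.7 and rank 3265 in replicate 2 (204 bp upstream), with no summit in replicate 3 and the nearest pooled summit at 9133 bp. The gene mRpL53, next to the Argonaute gene AGO1, had a signal of 62.6 and rank 4596 in replicate 2 and 58.5 and rank 5052 in replicate 3, with the nearest pooled summit at 1883 bp. The gene mRpL39, next to the proteasome gene Prosbeta2, had signals of 90.4, 42.6 and 20.7 in replicates 1, 2 and 3, at ranks 7864, 7089 and 18649, with the nearest pooled summit at 5548 bp. Over the whole genome, 354 (4.38%), 227 (2.81%) and 164 (2.03%) of the 8091 strongest regions of replicates 1, 2 and 3 overlapped no pooled region, the best of them at ranks 594, 704 and 837. The gene mRpS24 had a summit of rank 3730 in replicate 1 and none in the other lists.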
